A study of Homo sapiens with 9 samples.

Results

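The B-cell receptor signalling components are 36 genes chosen by name for what their products do in antigen receptor signalling, out of 60656 genes in the deposited count table. By role, 23 act in the forward direction (activating), 9 restrain the pathway (inhibitory), and 4 have no single direction (PTPRC, FCRLA, LAT2 and MS4A1). All libraries came from RIVA, an established cell line of the activated B-cell-like type of diffuse large B-cell lymphoma (ABC-DLBCL), which keeps its own BCL10. Cells carried a doxycycline-inducible lentiviral pLVX-TetOne construct that was empty (vector), or that encoded BCL10 S136X, a C-terminal truncation, or BCL10 R58Q, a substitution in the CARD domain. Vector cells received doxycycline as well, and RNA was sequenced 24 h after induction in 3 libraries per group. The dose was 200 ng/mL in the treatment protocol, while the sample characteristics give the same figure per µL. The inducible promoter drives BCL10 above its normal level, and empty vector was the control in these libraries, so overexpression as such and the effect of a mutation cannot be told apart.

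The B-cell receptor couples membrane immunoglobulin to CD79A and CD79B, whose tails are phosphorylated by SRC-family kinases such as LYN and then bind SYK. SYK and BTK, held together by the adaptor BLNK, activate phospholipase C gamma 2 (PLCG2), while the PI3K delta catalytic subunit (PIK3CD) makes the membrane lipid that recruits BTK. The products of PLCG2 activate protein kinase C beta (PRKCB) and RASGRP3, and signalling through PRKCB leads to BCL10 and MALT1, which switch on NF-kB. Inhibitory receptors such as CD22, CD72 and FCGR2B recruit the phosphatases encoded by PTPN6 (SHP-1) and INPP5D (SHIP-1). BCL10 thus stands downstream of most of these proteins, and the comparisons with vector ask how mRNA of the upstream components stood when BCL10 itself was altered.

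Promoter sequence was available for 29 of the 36 members, as 52 windows of 300 bases (250 before and 50 after a transcript start, RefSeq, GRCh38.p14). Motifs were picked for B-cell and NF-kB factors after expression results were known. The PU.1 motif GAGGAAGT, searched on both strands, lay in 7 of the 52 windows (13.5%), against 2.59% of all 35116 windows, and windows of the same gene can overlap. PU.1 is a transcription factor of B cells and myeloid cells. The 7 genes were SYK, BTK, VAV1, RASGRP3, INPP5D, PTPN6 and FCRLA. The motif with 10 bases on either side is shown for these genes because its excess over all windows was the largest of the motifs searched, with the match in capitals on whichever strand it was read.
SYK: gcgacactggGAGGAAGTgcgggccgcc
BTK: actcaccccgACTTCCTCccgccccgca
VAV1: aggcaaagaaGAGGAAGTggtagcacta
RASGRP3: gaaagaatagGAGGAAGTctgcctgcca
INPP5D: tttctgtaatGAGGAAGTtctccgcagc
PTPN6: caggatcgagGAGGAAGTggctgattac
FCRLA: agttaaatttACTTCCTCttttctaatc
The match began 82 bases before the start in SYK, 29 in BTK, 11 in VAV1, 41 in RASGRP3, 63 in INPP5D and 44 in FCRLA, and 25 bases after it in PTPN6. BTK held another match that began 171 bases before its start. Activating and inhibitory genes both held the motif, 4 of 19 and 2 of 8 with a window.

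The NF-kB (kB) motif lay in 9 of the 52 windows (17.3%), against 11.3% of all windows. Its holders included 3 of the 4 members whose mRNA was called higher in the comparisons with vector, PIK3CD, VAV2 and RASGRP3, while LAT2 had no window in the table. They also included FYN, PIK3R1, BTK, FCGR2B, CBLB and NFATC1, none of which was called. A member counted as a holder if any of its windows matched. The share of all genes by that rule was not computed, so the overlap with the called members was not tested. The sites of the 3 called genes follow, in transcript orientation, with the match in capitals.
PIK3CD: ggcggcaggcGGGGCGCCCCggcgcgcccc
VAV2: gcgcgcgggcGGGATGCCCCgcggccgctg
RASGRP3: aacaaattgtGGAATATCCCgctctgcatg
The matches began 40, 21 and 201 bases before a start. For PIK3CD and VAV2 this was the window numbered 1. For RASGRP3 it was window 3 (chr2:33476399-33476698), inside the gene, which begins at 33436324. The PIK3CD site stands in the 250 bases upstream of its first start (chr1:9651481-9651730, plus strand), where GENCODE places 0 exons.
PIK3CD upstream: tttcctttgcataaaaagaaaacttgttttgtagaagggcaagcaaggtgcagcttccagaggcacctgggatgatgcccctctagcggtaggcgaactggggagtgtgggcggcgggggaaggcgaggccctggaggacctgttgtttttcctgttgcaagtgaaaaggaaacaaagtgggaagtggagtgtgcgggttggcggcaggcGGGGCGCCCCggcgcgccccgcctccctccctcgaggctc
A match is a string of letters and shows no binding. The other motifs searched were no more frequent in member windows or lay in few of them. The NFAT motif TGGAAA was in 15.4% of member windows against 20.7% of all, and the AP-1 motif TGANTCA in 3.85% against 7.71%. The octamer ATTTGCAT and the EBF motif lay in 1 window each (1.92%, against 1.77% and 1.21%).

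Each library held 28047713 to 33122267 counts, with 5.12% to 8.45% of them on mitochondrial genes. BCL10 had 885 to 1268 counts in vector, 9838 to 14293 in S136X and 10117 to 10596 in R58Q libraries, which includes the construct. The deposited column names carry 1 date for vector and S136X and a later date for R58Q, so R58Q and that date cannot be told apart in any comparison below. B-cell identity was checked with 7 markers, all detected, led by CD74 and PAX5. Of 10 T and NK cell markers, 5 had at most 3 counts in every library, and the list summed to between 6.49 and 16.5 CPM (each count relative to its TMM-scaled library size). The 9 monocyte and macrophage markers summed to at most 0.651 CPM, and 6 of them had at most 3 counts in every library. Libraries of the same number deviated together across groups, so a model with the replicate number as a block was fitted as well. Adjusted p are those without the block unless it is named, and the members that passed under the block are listed further below. Since RNA was pooled over cells, fewer cells of a state and less RNA per cell cannot be told apart, and p-values measure the spread between these libraries only.

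In the vector libraries, the highest level per kilobase of exonic sequence was that of CD79A, at 554.8 CPM per kb. MS4A1, which encodes the surface protein CD20, followed at 126.8, CSK at 107.8, SYK at 79.3, CD79B at 67.9 and LYN at 64.3 CPM per kb. At the other end stood VAV3 (1.67), RASGRP3 (1.43) and FCGR2B (0.985 CPM per kb). CR2, the complement receptor CD21, had 0 to 4 counts in a library and was not tested, which left 35 members. The other tyrosine kinases stood lower, BLK at 29.9, BTK at 28.3 and FYN at 3.26 CPM per kb.

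Against vector, 4 members were higher in at least 1 mutant and none was lower in the model as fitted, at the threshold used throughout, an adjusted p under 0.05 with at least a 1.5-fold change. PIK3CD and LAT2 were higher in both mutants, VAV2 in S136X and RASGRP3 in R58Q. In S136X this was 3 of 35 members (8.57%), where 3.87% of all genes tested were called, 2.05% higher and 1.82% lower. In R58Q it was also 3 of 35 (8.57%), where 7.63% of all genes were called, 4.09% higher and 3.54% lower. The share of members called was thus near the background of both directions for R58Q. All calls were higher, a direction in which 2.05% (S136X) and 4.09% (R58Q) of all genes were called. With 3 members called in each mutant, no excess was tested. Mutant and vector libraries did not overlap for 15 members in S136X and 19 in R58Q, against 31.3% and 40.3% of all genes. For the lower direction, the 0 calls in edgeR stood beside 9 members in S136X and 13 in R58Q with a lower level at an unadjusted p under 0.05 (13.0% and 17.5% of all genes), and DESeq2 and limma-voom called 0 lower as well. Every adjusted p printed below is edgeR's quasi-likelihood p, corrected over all genes tested by the Benjamini-Hochberg method.

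**Figure D1:**
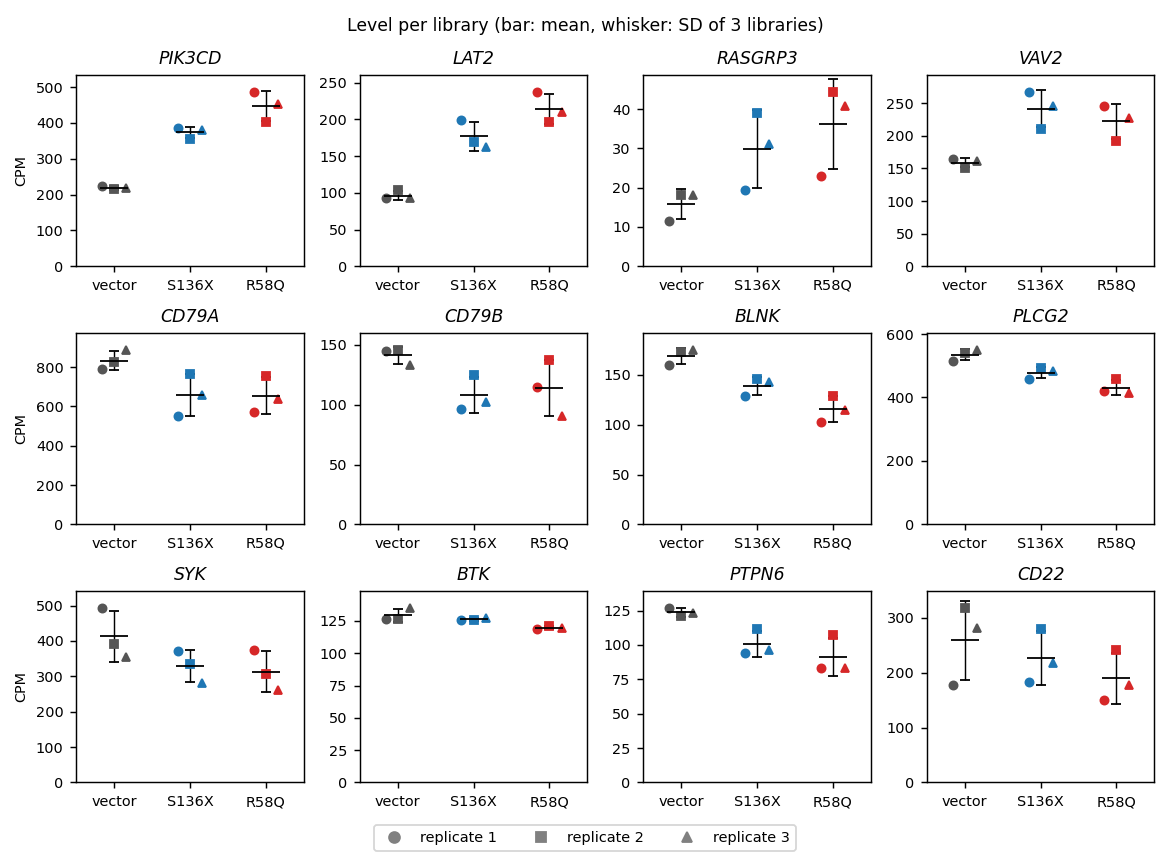
Level in CPM (vertical axes, starting at 0) of 12 members in the vector (grey), S136X (blue) and R58Q (red) libraries, with a marker shape for each replicate number, a horizontal bar for the mean and whiskers for the SD of 3 libraries. In PIK3CD, LAT2 and VAV2 every mutant library stands above every vector library, while in CD22 and SYK the groups overlap and the replicate numbers keep much of their order.

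PIK3CD (ENSG00000171608.16, chromosome 1, 9651731 to 9729114, plus strand) encodes the leukocyte-restricted catalytic subunit of PI3K. Its levels were 223.2, 214.4 and 217.6 CPM in vector replicates 1 to 3, 385.4, 354.8 and 379.6 in S136X and 486.2, 402.2 and 453.7 in R58Q. No library of any group overlapped another group. Mean levels were 218.4 ± 4.45, 373.3 ± 16.2 and 447.4 ± 42.4 CPM (SD, n = 3 each). The log2 fold change was 0.77 in S136X (standard error 0.06, edgeR adjusted p = 0.000276) and 1.03 in R58Q (standard error 0.08, edgeR adjusted p = 0.000138). Its regulatory partner PIK3R1 had log2 fold changes of 0.01 and 0.03, with 95% confidence intervals of -0.11 to 0.13 and -0.13 to 0.20. PIK3AP1, a PI3K adaptor of B cells, had 0.03 and -0.14 and was not called. The related catalytic subunit genes PIK3CG, PIK3CB and PIK3CA, named after their values were seen, were not called either. PIK3CG had 0.58 and 0.33 (edgeR adjusted p = 0.0009 and 0.0295) and PIK3CB 0.25 and 0.38 (edgeR adjusted p = 0.108 and 0.0196). PIK3CA had -0.15 and -0.10.

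LAT2 (ENSG00000086730.17, chromosome 7, 74199652 to 74229834, plus strand) encodes NTAL, a membrane adaptor of B cells and mast cells that is phosphorylated upon receptor engagement. It had 92.3, 103.9 and 92.6 CPM in vector, 199.3, 169.2 and 162.6 in S136X and 237.2, 196.9 and 209.3 in R58Q. Both mutants lay wholly above vector and overlapped each other. Its fitted log2 change was 0.88 (standard error 0.09, edgeR adjusted p = 0.000916) and 1.15 (standard error 0.08, edgeR adjusted p = 0.000123). PIK3CD and LAT2 kept their calls in all 6 fits that left out 1 library, in each mutant.

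RASGRP3 (ENSG00000152689.18, chromosome 2, 33436324 to 33564750, plus strand) loads RAS with GTP in response to diacylglycerol, and it was among the members of lowest level. It had 11.4, 18.2 and 18.1 CPM in vector, 19.5, 39.1 and 31.1 in S136X and 23.1, 44.4 and 40.9 in R58Q, so replicate 1 was the lowest library of each group. Every mutant library was above every vector library. On the log2 scale the change was 1.18 in R58Q (standard error 0.26, edgeR adjusted p = 0.0157) and 0.91 in S136X (standard error 0.25, edgeR adjusted p = 0.0556, not called). With the replicate number as a block, S136X was called too, at 0.89 (standard error 0.09, edgeR adjusted p = 9.6e-05). The S136X call was also made without S136X replicate 1 (1.15), and that in R58Q was lost without R58Q replicate 3 (1.09, edgeR adjusted p = 0.0542).

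VAV2 (ENSG00000160293.17, chromosome 9, 133761894 to 133992604, minus strand) is an exchange factor for small GTPases such as RAC. It had 164.6, 151.3 and 161.3 CPM in vector, 267.4, 211.1 and 246.0 in S136X and 246.3, 192.4 and 228.0 in R58Q, again with no mutant library as low as vector. The log2 fold change was 0.60 in S136X (standard error 0.09, edgeR adjusted p = 0.00516) and 0.48 in R58Q (standard error 0.09, edgeR adjusted p = 0.00953), the second under 1.5-fold. The S136X value is close to that threshold as well, and the call was lost when either vector replicate 2 (0.57) or S136X replicate 1 (0.52) was left out. The related VAV1, the main family member of blood cells, had log2 fold changes of 0.19 and 0.10, and VAV3 had -0.42 in both. In the model as fitted, of these only VAV3 in R58Q passed the adjusted p (edgeR, 0.0283). SOS1, the RAS exchange factor bound by GRB2, had -0.11 and -0.22. GRB2, the adaptor that carries SOS1, had 0.19 and 0.17, and its mutant libraries all lay above vector. Under the replicate block GRB2 (higher) and VAV3 (lower) passed the adjusted p in both mutants, and SOS1 (lower) in R58Q only.

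**Figure D2:**
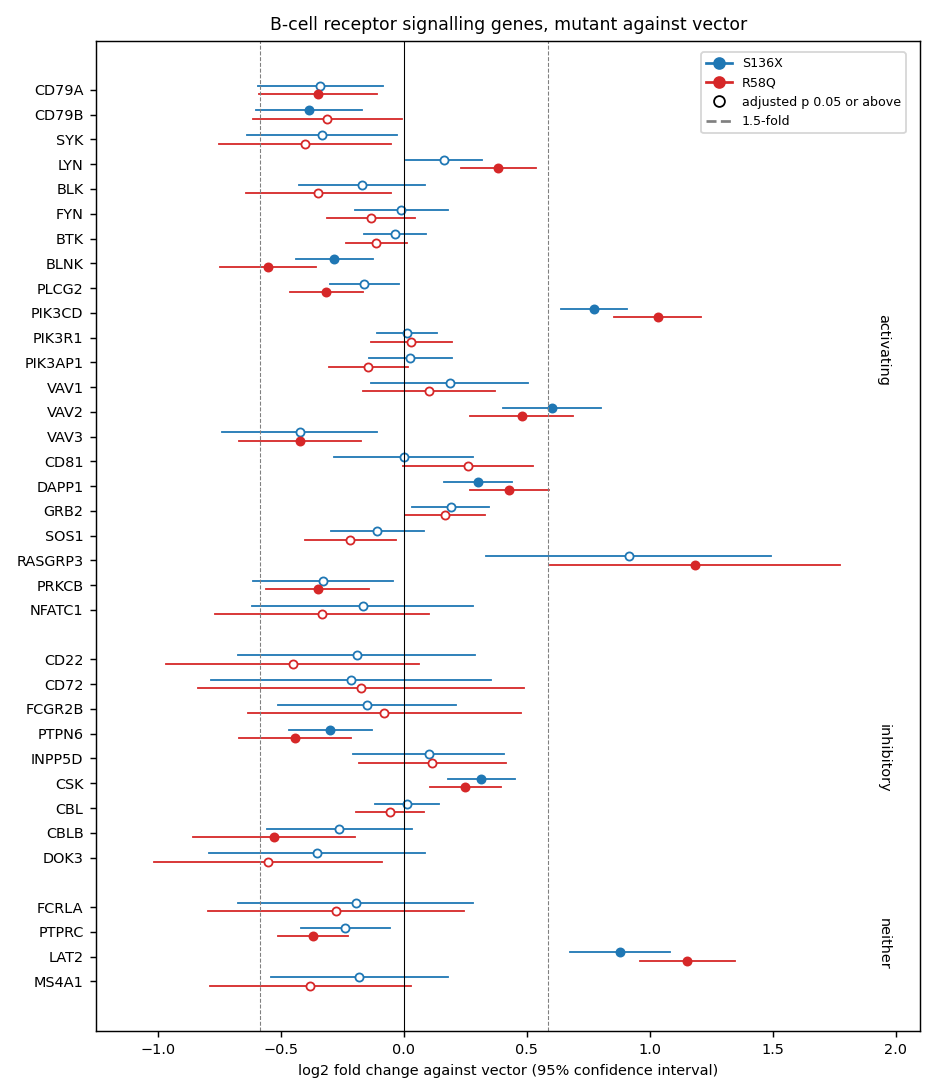
Log2 fold change against vector (horizontal axis) of the 35 tested members in S136X (blue) and R58Q (red), grouped by role, with 95% confidence intervals. Filled points passed an adjusted p under 0.05 and dashed lines mark 1.5-fold. PIK3CD, LAT2 and RASGRP3 stand farthest to the right, and the fitted values of 21 members in S136X and 23 in R58Q lie below 0, against 53.1% and 53.6% of all genes.

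The chains of the receptor itself were lower by less than 1.5-fold. CD79A had 788.4, 825.8 and 887.1 CPM in vector, 553.7, 766.6 and 657.6 in S136X and 571.5, 755.6 and 638.3 in R58Q. Each mutant lay wholly below vector. Fitted against vector, CD79A had a log2 fold change of -0.34 in S136X (standard error 0.11, edgeR adjusted p = 0.0927) and -0.35 in R58Q (standard error 0.10, edgeR adjusted p = 0.0466). CD79B had 144.6, 145.7 and 133.2 CPM in vector, 96.6, 124.8 and 102.6 in S136X and 114.7, 137.2 and 90.3 in R58Q. R58Q replicate 2 reached into the vector range, while S136X did not. Its log2 fold change was -0.39 in S136X (standard error 0.10, edgeR adjusted p = 0.0361) and -0.31 in R58Q (standard error 0.13, edgeR adjusted p = 0.13). Under the replicate block CD79A and CD79B passed the adjusted p in both mutants. Of the CD79B transcript, 18.6% is shared with the overlapping gene AC127029.3, which had 0 counts in every library. CD81, a tetraspanin of the cell surface, had log2 fold changes of 0.00 and 0.26 and was not called, though under the block it passed the adjusted p in R58Q.

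Among the kinases that start the cascade, only LYN in R58Q passed the adjusted p in the model as fitted. With the replicate block LYN (higher), SYK and BLK (both lower) passed it in both mutants. SYK had 492.7, 391.9 and 354.6 CPM in vector, 370.4, 334.2 and 280.2 in S136X and 373.7, 306.0 and 260.2 in R58Q. The groups overlapped, yet in each group replicate 1 was the highest and replicate 3 the lowest library. Its log2 fold changes were -0.33 (standard error 0.13, edgeR adjusted p = 0.157) and -0.40 (standard error 0.15, edgeR adjusted p = 0.096). With the replicate block they were -0.33 (standard error 0.05, edgeR adjusted p = 0.00136) and -0.40 (standard error 0.05, edgeR adjusted p = 0.000351).

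LYN both starts the signal and phosphorylates the inhibitory receptors. It had 421.3, 391.3 and 380.9 CPM in vector, 442.5, 471.6 and 424.0 in S136X and 546.3, 502.3 and 512.0 in R58Q. The groups did not overlap, with R58Q the highest. LYN had a log2 fold change of 0.17 in S136X (standard error 0.07, edgeR adjusted p = 0.164) and 0.38 in R58Q (standard error 0.07, edgeR adjusted p = 0.00633). BTK, the target of covalent inhibitors such as ibrutinib, was among the steadiest members. It had 126.2, 126.7 and 134.9 CPM in vector, 125.7, 125.7 and 127.4 in S136X and 118.9, 121.0 and 119.8 in R58Q. BTK had log2 fold changes of -0.03 (95% confidence interval -0.16 to 0.09) and -0.11 (-0.24 to 0.01), with edgeR adjusted p of 0.736 and 0.178. The other SRC-family kinases, BLK and FYN, had -0.17 and -0.01 in S136X and -0.35 and -0.13 in R58Q. With the replicate block LYN and BLK passed the adjusted p in both mutants, and BTK and FYN in neither.

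The adaptor, the phospholipase and the protein kinase C that lead towards BCL10 had lower fitted values in both mutants, by less than 1.5-fold. In R58Q each passed the adjusted p in the model as fitted, and in S136X only BLNK did. BLNK had 159.7, 172.5 and 174.9 CPM in vector, 128.4, 145.5 and 142.9 in S136X and 102.9, 128.5 and 115.2 in R58Q. No mutant library overlapped vector. The log2 fold change was -0.28 in S136X (standard error 0.07, edgeR adjusted p = 0.0352) and -0.55 in R58Q (standard error 0.09, edgeR adjusted p = 0.00414). The R58Q value passed 1.5-fold with upper-quartile scaling (-0.62), with total counts only (-0.61) and without R58Q replicate 2 (-0.63). Under both scalings the median over all genes was -0.09, against -0.03 as fitted. Of the exonic sequence of BLNK, 9.71% overlaps ZNF518A on the opposite strand, a gene with log2 fold changes of -0.10 and 0.01 that was not called. PLCG2 had 515.5, 539.4 and 549.5 CPM in vector, 458.5, 494.1 and 483.2 in S136X and 420.4, 457.4 and 414.2 in R58Q. The 3 groups were separate and R58Q was the lowest. Its log2 fold change was -0.16 in S136X (standard error 0.06, edgeR adjusted p = 0.138) and -0.31 in R58Q (standard error 0.06, edgeR adjusted p = 0.0129). Under the replicate block BLNK and PLCG2 passed the adjusted p in both mutants.

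PRKCB had 148.2, 187.9 and 166.1 CPM in vector, 120.9, 159.4 and 119.3 in S136X and 125.9, 141.2 and 127.3 in R58Q. R58Q lay below vector and S136X overlapped it. Log2 fold changes of PRKCB were -0.33 (standard error 0.13, edgeR adjusted p = 0.134) and -0.35 (standard error 0.09, edgeR adjusted p = 0.0308). PRKCB passed the adjusted p in both mutants under the replicate block. NFATC1, the calcium-dependent transcription factor, had -0.17 and -0.33 and passed no threshold in the model as fitted. With the replicate block it passed the adjusted p in R58Q (-0.34, edgeR adjusted p = 0.0142) and not in S136X (edgeR adjusted p = 0.179). DAPP1, an adaptor that binds the lipid products of PI3K, had 0.30 in S136X (edgeR adjusted p = 0.0173) and 0.43 in R58Q (edgeR adjusted p = 0.00506), with every mutant library above vector.

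No inhibitory member was called in either mutant, where 3.87% (S136X) and 7.63% (R58Q) of all genes were called. For most of the inhibitory members the spread between libraries of a group was wide. By edgeR at an unadjusted p under 0.05, 2 of the 9 passed in S136X and 4 in R58Q (26.7% and 36.1% of all genes in either direction), and DESeq2 and limma-voom called none. PTPN6, which dephosphorylates SYK and BLNK, had 126.8, 120.8 and 123.5 CPM in vector, 93.9, 111.5 and 96.4 in S136X and 83.0, 107.3 and 83.2 in R58Q. Every mutant library was below vector. PTPN6 had a log2 fold change of -0.30 in S136X (standard error 0.07, edgeR adjusted p = 0.0372) and -0.44 in R58Q (standard error 0.10, edgeR adjusted p = 0.0177), both under 1.5-fold. INPP5D, the lipid phosphatase that opposes PI3K, had 115.5, 131.1 and 137.8 CPM in vector, 107.0, 157.7 and 147.6 in S136X and 111.0, 160.3 and 146.1 in R58Q. The groups overlapped, with log2 fold changes of 0.10 (95% confidence interval -0.20 to 0.41, edgeR adjusted p = 0.675) and 0.12 (-0.18 to 0.41, edgeR adjusted p = 0.559).

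CD22, a lectin receptor that recruits PTPN6, had 178.4, 317.9 and 281.2 CPM in vector, 182.7, 279.8 and 218.1 in S136X and 151.2, 241.2 and 177.4 in R58Q. Vector replicate 1 lay below every S136X library and within the R58Q range, so vector overlapped R58Q and its other libraries stood above both mutants. The log2 fold changes were -0.19 (standard error 0.21, edgeR adjusted p = 0.61) and -0.45 (standard error 0.23, edgeR adjusted p = 0.188). With the replicate block the R58Q value was -0.44 (standard error 0.07, edgeR adjusted p = 0.00228) and that of S136X -0.17 (edgeR adjusted p = 0.0948). Without vector replicate 1, CD22 was called lower in R58Q at -0.65 (edgeR adjusted p = 0.0436). FCGR2B, the inhibitory Fc receptor, had 5.75, 6.66 and 7.23 CPM in vector, 4.92, 6.69 and 6.10 in S136X and 4.45, 8.81 and 5.38 in R58Q. Groups overlapped, and the log2 fold changes were -0.15 (95% confidence interval -0.51 to 0.21, edgeR adjusted p = 0.599) and -0.08 (-0.63 to 0.48, edgeR adjusted p = 0.845). Some 19.7% of its transcript is shared with FCGR2A or FCGR2C, so its counts are uncertain.

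The remaining inhibitory members spanned log2 fold changes of -0.35 to 0.32 in S136X and -0.55 to 0.25 in R58Q. CSK, which phosphorylates the C-terminal tail of SRC-family kinases and holds them inactive, was the highest. Its values were 0.32 (edgeR adjusted p = 0.0146) and 0.25 (edgeR adjusted p = 0.0267), with no overlap between mutant and vector libraries. DOK3, an adaptor that brings INPP5D to the receptor, was the lowest, at -0.35 and -0.55 with edgeR adjusted p of 0.28 and 0.0872. The ubiquitin ligase gene CBLB had -0.26 and -0.53, of which the R58Q value passed the adjusted p (edgeR, 0.0348), while its relative CBL had 0.01 and -0.06. Under the replicate block DOK3 and CBLB passed the adjusted p in both mutants. Without R58Q replicate 2 both DOK3 (-0.77) and CBLB (-0.69) were called lower in R58Q, as were DOK3 without vector replicate 1 (-0.69) and CBLB with upper-quartile scaling (-0.59). CD72, a receptor that binds PTPN6, had -0.22 and -0.17 with wide intervals, and 19.5% of its exonic sequence lies opposite other genes, TESK1 among them. TESK1 had log2 fold changes of -0.09 and -0.36 (edgeR adjusted p = 0.58 and 0.0363), and its part in the CD72 counts was not tested.

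Among the members without a single direction, LAT2 was described above and the other 3 had lower fitted values. PTPRC, the phosphatase CD45 that both activates and restrains SRC-family kinases, had -0.24 and -0.37 (edgeR adjusted p = 0.096 and 0.00569). It passed the adjusted p in both mutants under the replicate block. MS4A1, the target of rituximab, had -0.18 and -0.38, and FCRLA, an intracellular Fc receptor-like protein, had -0.19 and -0.28, and neither passed a threshold in the model as fitted. With the replicate block MS4A1 passed the adjusted p in both mutants, at -0.18 and -0.38 (edgeR adjusted p = 0.0449 and 0.000689), and FCRLA in neither (edgeR adjusted p = 0.121 and 0.0529).

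**Figure D3:**
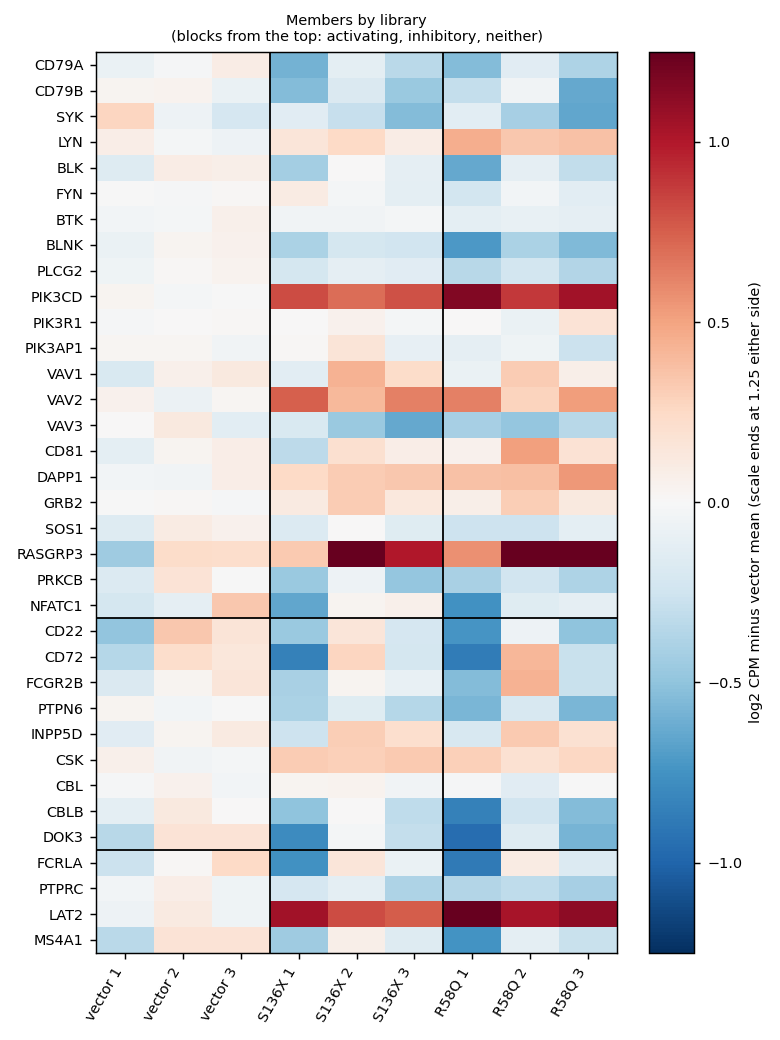
Log2 CPM of the 35 tested members in each of the 9 libraries minus the mean of the vector libraries, red above and blue below that mean. PIK3CD, LAT2 and RASGRP3 are red in all 6 mutant libraries, and replicate 1 of each mutant is the bluest column for CD72, DOK3, FCRLA and CBLB.

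The comparison of roles asked whether activating and inhibitory components moved apart. Of 22 tested activating genes, 2 were called higher in each mutant, and of 9 inhibitory genes 0, with 0 lower in either class. Of all genes tested, 2.05% were called higher and 1.82% lower in S136X, and 4.09% and 3.54% in R58Q. At such shares 0 of 9 inhibitory genes cannot tell the classes apart. Medians of the log2 fold change were -0.02 (activating) and -0.19 (inhibitory) in S136X, beside -0.02 over all genes tested, and -0.14 and -0.17 in R58Q, beside -0.03. When 1 library was left out, the inhibitory median ran from -0.36 (without S136X replicate 2) to -0.03 (without S136X replicate 1) in S136X. In R58Q it ran from -0.57 (without R58Q replicate 2) to -0.06 (without vector replicate 2). The activating median ran from -0.06 to 0.01 in S136X and from -0.18 to -0.12 in R58Q over the same fits. Without the fold threshold, activating genes split into 3 higher and 2 lower in S136X and 5 higher and 5 lower in R58Q, and inhibitory genes into 1 and 1, then 1 and 2. Over all members that made 8 in S136X, 5 higher and 3 lower, where 10.1% of all genes passed (6.03% higher and 4.10% lower). In R58Q it made 15, 7 higher and 8 lower, where 21.0% passed (12.3% and 8.76%). Each class held genes of both directions.

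**Figure D4:**
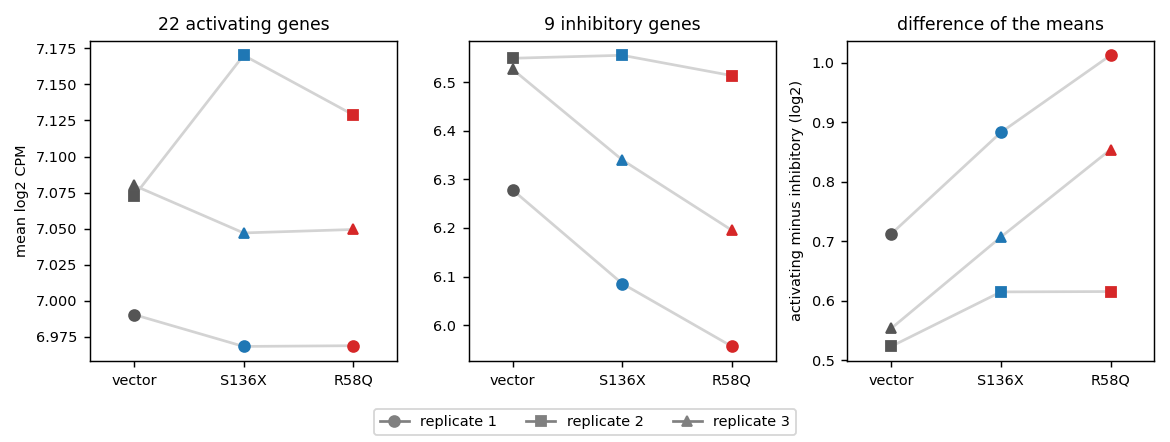
Mean log2 CPM over the 22 activating genes (left) and the 9 inhibitory genes (middle), and their difference (right), in each library, with lines joining libraries of the same replicate number and vertical axes that do not start at 0. The difference was larger in each mutant library than in the vector library of its number.

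In each library the mean log2 CPM of activating genes stood above that of inhibitory genes. By replicate number, the difference came to 0.71, 0.52 and 0.55 for vector, 0.88, 0.62 and 0.71 for S136X and 1.01, 0.62 and 0.85 for R58Q. Within each number both mutants were higher than vector, although vector replicate 1 stood at the level of S136X replicate 3, so the groups overlapped. The inhibitory mean spanned 5.96 to 6.56 over the libraries and the activating mean 6.97 to 7.17. These differences describe the list and carry no test.

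Many members kept the same order of the replicate numbers in every group. Replicate 1 was the lowest library in all 3 groups for 16 of 35 members (45.7%), against 13.3% of all genes. They included 6 of the 9 inhibitory genes (CD22, CD72, FCGR2B, INPP5D, CBLB and DOK3) and 8 of the 22 activating genes, CD79A, BLK, BLNK and RASGRP3 among them. Replicate 2 was the highest in all groups for 9 of 35 (25.7%, against 6.77%), while SYK, PIK3CD and VAV2 were highest in replicate 1. Outside the members, the markers FCRL1, TRAC, JCHAIN and TNFRSF13C also had their lowest count in replicate 1 of each group, while PAX5 and IRF4 did not. Whether the order is particular to the members was not tested. What the number stands for is not given in the sources used here, and its part in the values was not tested.

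With the number as a block, the standard error was smaller for all 35 members in both comparisons. The median standard error of an inhibitory member went from 0.13 to 0.07 in S136X and from 0.14 to 0.08 in R58Q. At an adjusted p under 0.05 with no fold threshold, 21 of 35 members then passed in S136X (8 higher and 13 lower), against 24.7% of all genes (12.9% higher and 11.8% lower). In R58Q 25 passed (9 higher and 16 lower), against 35.2% (18.2% and 17.0%). At 1.5-fold, 4 were called in S136X and 3 in R58Q, all higher, where 6.53% and 10.7% of all genes were called (2.90% and 4.79% higher). The lower members under the block in both mutants were CD79A, CD79B, SYK, BLK, BLNK, PLCG2, VAV3, PRKCB, PTPN6, CBLB, DOK3, PTPRC and MS4A1. The higher ones in both were LYN, PIK3CD, VAV2, DAPP1, GRB2, RASGRP3, CSK and LAT2. The R58Q lists further held CD22, SOS1 and NFATC1 (lower) and CD81 (higher). Both comparisons use the same vector libraries, so their agreement is in part built in.

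**Figure D5:**
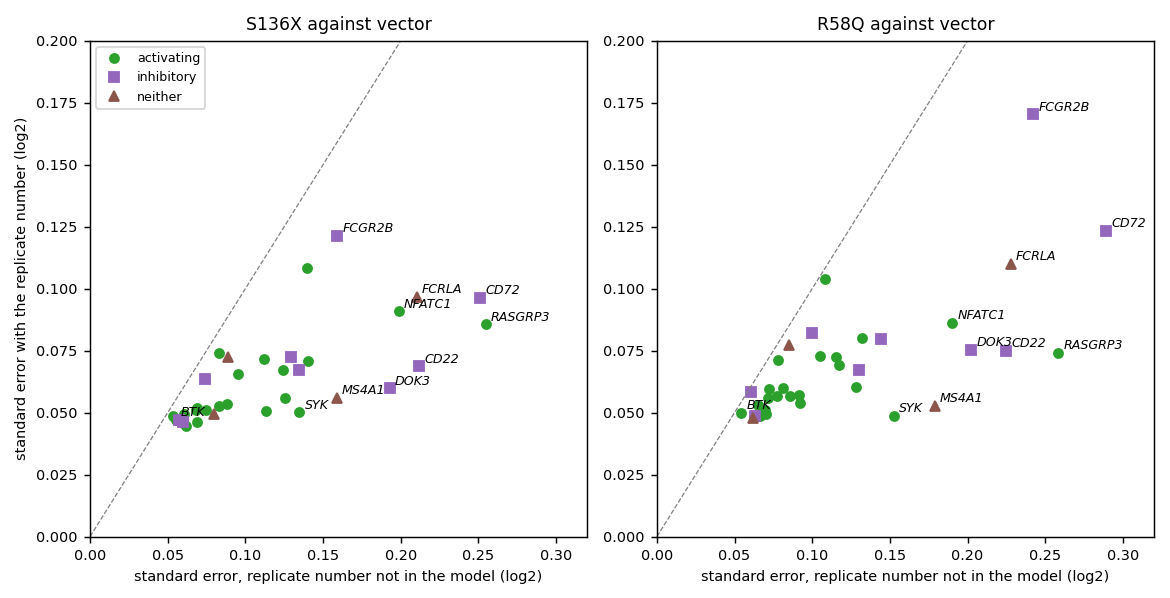
Standard error of the log2 fold change of each tested member without (horizontal) and with (vertical) the replicate number in the model, for S136X (left) and R58Q (right), with a dashed line of equality. Every point lies below the line, and CD22, DOK3, MS4A1, SYK and RASGRP3 lie far below it, whereas BTK lies near it.

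Compared directly, no member passed the threshold between the mutants. By edgeR, 0 of 35 were called (0.434% of all genes) and 0 passed the adjusted p at any fold (0.533%), while 5 had an unadjusted p under 0.05 (11.0%). DESeq2 and limma-voom also called 0. The 5 were PIK3CD, LYN and LAT2, which were higher in R58Q, and BLNK and PLCG2, which were lower. PIK3CD had a log2 difference of 0.25 for R58Q against S136X (95% confidence interval 0.07 to 0.43, edgeR adjusted p = 0.253) and LAT2 of 0.27 (0.05 to 0.49, edgeR adjusted p = 0.336). LYN had 0.21 (0.07 to 0.35, edgeR adjusted p = 0.22), BLNK -0.28 (-0.49 to -0.06, edgeR adjusted p = 0.322) and PLCG2 -0.16 (-0.31 to -0.02, edgeR adjusted p = 0.397). With the replicate block 17 members passed the adjusted p (5 higher and 12 lower in R58Q), against 14.6% of all genes (7.84% and 6.71%). None of them reached 1.5-fold, which 2.94% of all genes did. With the block fitted over all 9 libraries, fewer passed, 5 higher and 5 lower (4.02% and 2.63% of all genes), and 0 were called (1.93%). The medians were -0.05 for activating and -0.08 for inhibitory members, beside 0.00 over all genes, and R58Q carries the later date here too.

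Beyond the members, 64 further activating and 37 further inhibitory pathway genes were read from the same fits. Of the activating genes tested, 4 of 60 were called higher and 0 lower in S136X, and 5 of 59 higher and 1 lower in R58Q. Over all genes these shares were 2.05% higher and 1.82% lower in S136X, and 4.09% and 3.54% in R58Q. Of 26 inhibitory genes tested, 2 were called higher and 2 lower in S136X, and 5 higher and 1 lower in R58Q. With no fold threshold, 9 of the 60 activating genes passed the adjusted p higher and 5 lower in S136X (6.03% and 4.10% of all genes). In R58Q 12 of 59 were higher and 9 lower (12.3% and 8.76%). Of the 26 inhibitory genes, 3 were higher and 4 lower in S136X, and 5 and 5 in R58Q. RASGRP1, the relative of RASGRP3 best known from T cells, had log2 fold changes of 1.32 and 1.54 (edgeR adjusted p = 0.0136 and 0.00534), from 93 to 168 counts in vector. ORAI1, the store-operated calcium channel, had 0.77 and 0.76, and SH3BP2, an adaptor that binds SYK, 0.65 and 0.73. IFITM1, a partner of CD81 at the surface, had 1.64 and 2.26. Relatives of the first pair, named after their values were seen, were lower by less than 1.5-fold, RASGRP2 at -0.54 and -0.51 (edgeR adjusted p = 0.00754 and 0.0224) and ORAI2 at -0.51 and -0.55 (edgeR adjusted p = 0.0113 and 0.00709). The calcium release channel gene ITPR2, named likewise, had -0.42 and -0.44 (edgeR adjusted p = 0.00482 and 0.00538).

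On the inhibitory side, FCRL2, an Fc receptor-like protein with inhibitory motifs, had 1.38 and 1.96, and SPRED2, which restrains RAS to ERK signalling, had 0.82 and 0.88. DGKA, which removes diacylglycerol and thereby opposes RASGRP proteins, was lower, at -0.60 and -0.68 (edgeR adjusted p = 0.00424 and 0.00525). Between the mutants only GAB2, a docking adaptor for PI3K, was called, and it is named after its value was seen. Mean levels of GAB2 were 18.2 (vector), 25.8 (S136X) and 54.1 CPM (R58Q), with a log2 difference of 1.06 between the mutants (standard error 0.13, edgeR adjusted p = 0.019). The calls of FCRL2, IFITM1 and SH3BP2 in S136X were each made in 2 of the 6 fits that left out 1 library, and that of DGKA in 3, while RASGRP1, ORAI1 and SPRED2 were called in all 6.

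Markers of B-cell state moved beside these genes. The 7 plasma cell markers summed to 966.6 to 1081 CPM in vector, 1411 to 1428 in S136X and 1427 to 1609 in R58Q. IRF4, which ABC-DLBCL cells express, made up most of the sum and was called higher (log2 fold changes 0.67 and 0.76), while the medians of the list were -0.22 and -0.28. TNFRSF17 (-0.86 and -0.54) and MZB1 (-0.32 in both) were lower at an edgeR adjusted p under 0.05 in both mutants. The 7 B-cell markers summed to 2338 to 2586, 2689 to 3160 and 2962 to 3274 CPM. Of these, CD40 was called higher in both mutants (0.96 and 1.77) and EBF1 in R58Q (0.82), CD74 had 0.29 and 0.34 and was not called, and TNFRSF13C was lower in R58Q (-0.48, edgeR adjusted p = 0.0312). Immunoglobulin constant genes summed to 8386 to 9683, 7115 to 8198 and 6459 to 7562 CPM, most of it from IGHM, IGKC and IGHG3. Of the 10 tested, 0 passed the adjusted p in S136X and 2 in R58Q, both lower (10.1% and 21.0% of all genes in either direction). The medians of this list were -0.01 and -0.06, so the falling sum does not describe the list as a whole. No list had a marker at 0 in every library apart from 1 immunoglobulin gene. The part of these shifts in the members' values was not tested.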

How the data were processed

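RNA was sequenced from 9 RIVA libraries, 3 each of vector, S136X and R58Q. Per the labels, the library kit selected mRNA and reads of separate sequencing runs were combined. The submitters' processing notes name cutadapt, STAR, Picard and hg38. The counting program, its annotation and its use of strand are not given in the sources used here. The authors deposited read counts per gene, used here, and 9 columns of normalized counts, not used. Rows without a gene numbered 0.

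Each comparison used the 6 libraries of its groups in edgeR 4.0.16 (R 4.3.3), with filterByExpr (minimum count 10, minimum total 15), TMM scaling, the quasi-likelihood F test and Benjamini-Hochberg adjustment over all genes tested. Calls needed an adjusted p under 0.05 and 1.5-fold. Log2 CPM used a prior count of 2. Alternatives were DESeq2 1.42.0, limma-voom 3.58.1, upper-quartile and total-count scaling, other filters and thresholds, all 9 libraries in one fit, the replicate block and each library left out. Leaving out replicate 1 of both groups, and the block with all 9 libraries, were added after seeing the data. The procedure was tested on simulated data. Exonic lengths and overlaps came from GENCODE release 29.

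All 9 correlations of deviations from the group mean between libraries of the same number were above 0.1 (0.143 to 0.626). Between libraries of different numbers they were -0.458 to 0.169, so the ranges overlap slightly. Replicate numbers in the labels were therefore used as pairs in the block model. The main fits did not pair the libraries, and their calls and adjusted p are those printed unless the block is named. Libraries of a group differed well beyond counting error (chi-square over its degrees of freedom, 7.91 to 25.6). The members, roles and lists were chosen with earlier results of these data known, so no list was tested. Named with values for each library were members called in any comparison and 12 core genes (CD79A, CD79B, SYK, LYN, BTK, BLNK, PLCG2, PRKCB, CD22, FCGR2B, PTPN6 and INPP5D), other members by range and count, and, of the other pathway genes, those called in both mutants, up to 8.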

Additional observations from a re-analysis of the deposited data

Results flagged for a closer look

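GAB2, which encodes a docking adaptor for PI3K and the phosphatase SHP2, was the pathway gene whose response differed between the mutants. The direct test of R58Q against S136X gave a log2 fold change of 1.06 (standard error 0.13, edgeR adjusted p = 0.019), with all 3 R58Q libraries above all 3 S136X libraries. Against vector it had 0.50 in S136X (edgeR adjusted p = 0.00952, under 1.5-fold) and 1.57 in R58Q (edgeR adjusted p = 0.000269). The call was made in 2 of the 6 fits that left out 1 library, with values of 0.98 to 1.20 over those fits. The R58Q libraries carry the later date, so date and mutant cannot be told apart.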

How the results depend on the processing

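No result changed direction past the threshold under any setting run, and 0 members were called in R58Q against S136X under all of them. With no fold threshold, members called were 5 higher and 3 lower in S136X (6.03% and 4.10% of all genes). In R58Q they were 7 higher and 8 lower (12.3% and 8.76%). Members called lower in R58Q, 0 as reported, were 2 with upper-quartile scaling (BLNK and CBLB) and 1 with total counts only (BLNK). Of the 15435 genes tested, 546 were called lower as reported, 772 with upper-quartile scaling and 741 with total counts only. The all-gene median log2 fold change was -0.03, -0.09 and -0.09 in that order. Members called lower were 0 to 3 over the fits that each left out 1 library. The count was 2 without vector replicate 1 (CD22 and DOK3) and 3 without R58Q replicate 2 (BLNK, CBLB and DOK3). The median log2 fold change of inhibitory members in R58Q was -0.568 to -0.0607 over those fits, the lowest without R58Q replicate 2. The replicate block gave 4 members higher in S136X, RASGRP3 added at 0.89, where 2.90% of all genes were called higher. It changed no other call of a member in the 3 comparisons. RASGRP3 was also called there with no filter on low counts (0.91). Without replicate 1 of both groups, 3 members were called higher in each mutant, beside 379 of 15715 genes in S136X and 631 of 15591 in R58Q. VAV2 in S136X was not called with upper-quartile scaling (0.57), total counts only (0.55) or without replicate 1 (0.56). The causes were not tested. With 3 libraries a group, 95% confidence intervals of CD72 reached from -0.83 to 0.49 in R58Q, so differences of that size could not be resolved.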
